A study of Mus musculus with 12 samples.

Results

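Bone marrow-derived macrophages with MOF depleted were compared with control cells 3 h after lipopolysaccharide (LPS). MOF, the product of the mouse gene Kat8, was depleted with a short hairpin RNA (group shMOF_LPS3), and control cells carried a control hairpin in otherwise wild-type cells (group shCTRL_LPS3). Both groups were given LPS at 100 ng/ml for 3 h and had 3 RNA-seq libraries each, which makes 6 of the 12 libraries of the study. The other 6 libraries hold the same hairpins in unstimulated cells. Genes entered at a mean count, after normalization, of 10 or more, and 12994 of 14264 met this. That mean is the same in both of the authors' deposited tables. The gene just inside the limit had a mean of 10.0013 and the gene just outside had 9.99854 in the authors' deposited table. The labels name 1 hairpin for control and 1 for depletion and no rescue is named, so effects of the hairpin other than those on MOF cannot be told apart. The labels do not say whether the 3 libraries of a group came from separate animals or cultures, so the p-values measure the spread between these samples, which may be technical. The sources used here give 1 fold change and its standard error per gene rather than a value per library, so the spread of each gene is given as a 95% interval.

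MOF is the lysine acetyltransferase that places most acetylation on lysine 16 of histone H4. It works in the MSL complex, which acts mainly on that residue in gene bodies, and in the NSL complex, which binds promoters of widely expressed genes. LPS is sensed by the receptor TLR4 with its partner MD-2 and the carrier CD14. The adaptor MyD88 then leads to NF-kappaB and MAP kinases and to cytokine genes, while the adaptor TRIF leads to IRF3, interferon beta and, through the interferon receptor, to a second wave of interferon-stimulated genes. The comparison asks how transcript levels of an activated macrophage differ when MOF is depleted.

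Kat8 itself fell to 0.201 (0.168 to 0.240) of the control level, the value in parentheses being the 95% interval, as it is throughout. Every fold in the text is shMOF over shCTRL at LPS 3 h unless said otherwise, and folds and intervals were computed from the authors' deposited log2 fold changes and standard errors. A gene is said to rise or fall only where the deposited DESeq2 adjusted p was under 0.05. Kat8 lies on chromosome 7 of mm10 at chr7:127912516-127925837, plus strand, and its last 122 bases overlap Prss8 on the other strand. Neighbours within 50 kb moved little. Vkorc1 at 1.25 rose, Zfp668 at 0.858, Zfp646 at 0.876 and Bckdk at 0.898 fell, and Prss36 at 0.775 did not pass the test. In unstimulated cells Kat8 stood at 0.210 (0.182 to 0.242) of control. Prdx1, a peroxidase of the redox system, stood at 0.952 (0.865 to 1.05) and did not pass the test.

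All 8 macrophage markers were in the table, with a summed mean normalized count of 482312 in the authors' deposited table. Of the 8, 5 rose. Markers of other cells were far lower: 2 of 7 T cell markers were listed (summed mean 217.6 in the authors' deposited table, Lck rose), 1 of 5 B cell markers (103.8, Cd79b rose), and none of the 5 NK cell or 5 erythroid markers. Of 9 neutrophil markers 2 were listed with a summed mean of 27.7 in the authors' deposited table. Fibroblast markers (6 of 7, sum 1344 in the authors' deposited table) included 3 that rose, the collagen genes Col1a1, Col1a2 and Col3a1. Endothelial markers (4 of 4, sum 1415 in the authors' deposited table) included 2 that rose, Kdr and Vwf. Progenitor markers (5 of 5, sum 1065 in the authors' deposited table) included 2 that fell, Cd34 and Ly6a. Of 7 dendritic cell markers Zbtb46 alone was listed, at a mean of 43.0 in the authors' deposited table, and rose. Mast cell markers (2 of 5, sum 20.98 in the authors' deposited table) did not pass, and of the osteoclast markers (4 of 6, sum 1798 in the authors' deposited table) Acp5 rose. Of the megakaryocyte markers (3 of 4, sum 8013 in the authors' deposited table) Pf4, which macrophages also make, rose and Ppbp fell. The part of these cells in the results was not tested, and in bulk RNA fewer cells of a type and less RNA per cell cannot be told apart.

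At LPS 3 h, 3872 of the 12994 genes (29.8%) rose and 2768 (21.3%) fell, so 51.1% passed the test in either direction. Most changes were modest. The median fold of the genes that rose was 1.28 and of those that fell 0.750, with 256 genes up and 361 down by 2-fold or more. The median log2 fold change of all genes tested was 0.03, with quartiles of -0.21 and 0.26. These shares are the background for each gene group below. In unstimulated cells 23.2% rose and 19.4% fell. The effect of MOF depletion was higher at LPS 3 h than in unstimulated cells for 18.2% of genes and lower for 12.4%, by the test of the difference described under processing. Of the genes called in both states, 3094 had the same direction and 551 opposite directions, 339 of them higher after LPS and lower without it.

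**Figure D1:**
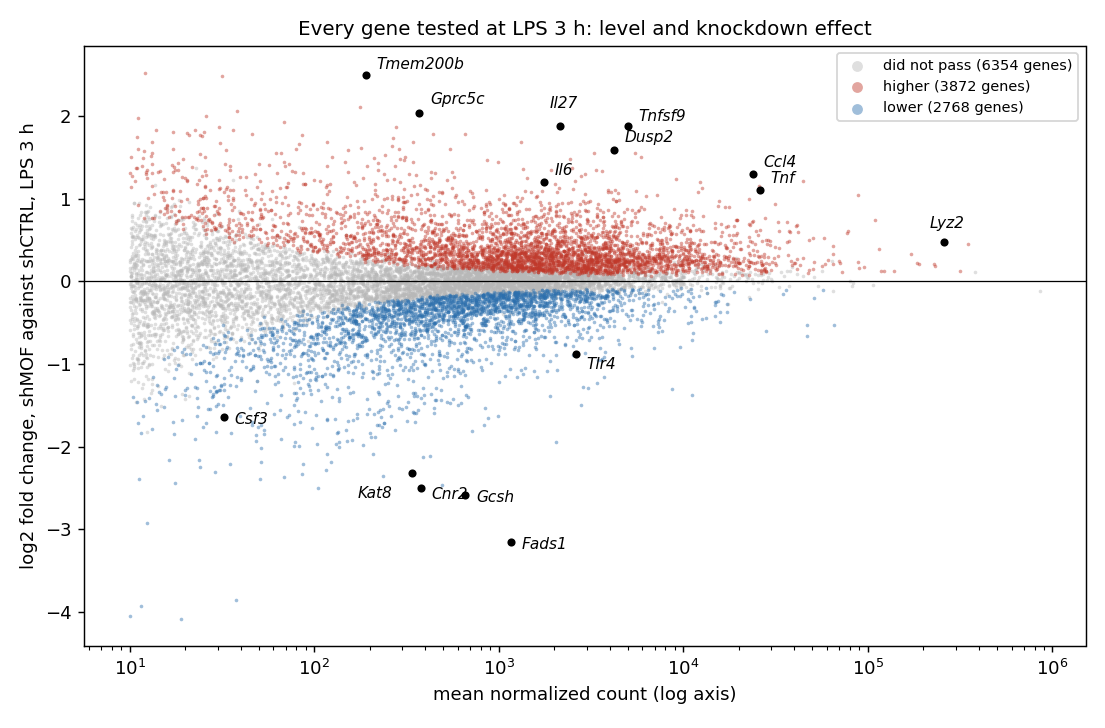
Log2 fold change of shMOF against shCTRL at LPS 3 h (vertical axis) against mean normalized count (horizontal axis, log scale), 1 point per gene tested, coloured by whether it rose (3872), fell (2768) or did not pass (6354). Kat8 sits far below most genes at a fold of 0.201, with Fads1 and Gcsh among several genes lower still. Among the most abundant genes more points lie above 0 than below.

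The LPS receptor and its helpers moved in opposite directions. Tlr4, the signalling receptor, fell to 0.542 (0.499 to 0.589) of control, while Ly96, which encodes its LPS-binding partner MD-2, rose 1.62-fold (1.46 to 1.79) and Cd14, which hands LPS to the complex, rose 1.21-fold (1.12 to 1.31). Of the 9 genes for LPS recognition 5 rose and 2 fell. The other gene to fall was Cnpy3, an endoplasmic reticulum chaperone of Toll-like receptors, at 0.861. Ly86, the MD-1 partner of the TLR4 relative RP105, rose 1.66-fold (1.43 to 1.92), and Cd180, which encodes RP105, rose 1.12-fold (1.03 to 1.22). Tlr4 was at 0.590 (0.549 to 0.634) in unstimulated cells, and the difference between the states did not pass its test. The remaining Toll-like receptor genes with Unc93b1 differed from Tlr4 in direction, 8 of 10 rising. Tlr7, a receptor for single-stranded RNA, had the largest rise at 1.60 (1.44 to 1.78), and Tlr2, the receptor for lipoproteins, rose 1.42-fold (1.30 to 1.55). Tlr13 at 1.02 and Tlr5 at 0.968 did not pass the test.

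Downstream of the receptor, adaptors and kinases mostly rose by small amounts. Of 17 adaptor and IRAK/TRAF genes 11 rose and 1, Irak3, which restrains IRAK signalling, fell, to 0.898 (0.826 to 0.976). Myd88, the central adaptor, rose 1.47-fold (1.32 to 1.65), and Peli1, a ubiquitin ligase acting on IRAK proteins, rose 2.04-fold (1.87 to 2.24). The adaptor genes Ticam1 (TRIF, 1.06), Irak1 (1.04) and Traf6 (0.991) did not pass the test. Among 15 genes of the TAK1 and IKK kinase complexes 8 rose and 2 fell. The TAK1-binding proteins separated, with Tab2 up at 1.70 (1.58 to 1.82) and Tab1 down at 0.511 (0.433 to 0.604). Map3k8 (TPL2), the kinase that links IKK to ERK, rose 1.74-fold (1.56 to 1.94). The IKK subunit Ikbkb rose 1.23-fold (1.17 to 1.31), while Chuk and Ikbkg did not pass. Of 24 MAP kinase genes 13 rose and 5 fell. Mapkapk2, which acts below p38 on cytokine mRNA, rose 1.67-fold (1.57 to 1.78), and Map2k3, a kinase that activates p38, fell to 0.573 (0.532 to 0.617).

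All 5 NF-kappaB subunit genes and all 6 genes for I-kappaB proteins rose, with median log2 fold changes of 0.52 and 0.55. Rel, the c-Rel subunit, rose most among subunits at 1.959 (1.82 to 2.11), and Rela (p65) rose 1.36-fold (1.26 to 1.47). Nfkbiz, a nuclear I-kappaB needed for secondary response genes such as Il6, rose 2.37-fold (2.14 to 2.62), and Nfkbia, the inhibitor that NF-kappaB itself induces, rose 1.48-fold (1.43 to 1.53). The rise was larger after LPS than without it for 4 of the 5 subunits and 4 of the 6 I-kappaB genes. Negative regulators moved the same way in most cases: of 22 genes 13 rose and 4 fell (median log2 0.46). Tnfaip3 (A20), which removes ubiquitin chains from the pathway, rose 2.001-fold (1.86 to 2.15), and Zc3h12a (Regnase-1), which cuts cytokine mRNA, rose 1.45-fold (1.37 to 1.54). Zfp36l2, an mRNA-destabilizing relative of tristetraprolin, fell to 0.534 (0.475 to 0.600), whereas Zfp36 (tristetraprolin) rose 1.38-fold (1.28 to 1.48). Among 12 phosphatases that switch MAP kinases off 5 rose and 3 fell. Dusp2 rose 3.02-fold (2.74 to 3.34), Dusp6, which acts on ERK, fell to 0.576 (0.454 to 0.730), and Dusp1, the phosphatase for p38 and JNK, stayed at 1.02 (0.935 to 1.11), which did not pass.

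**Figure D2:**
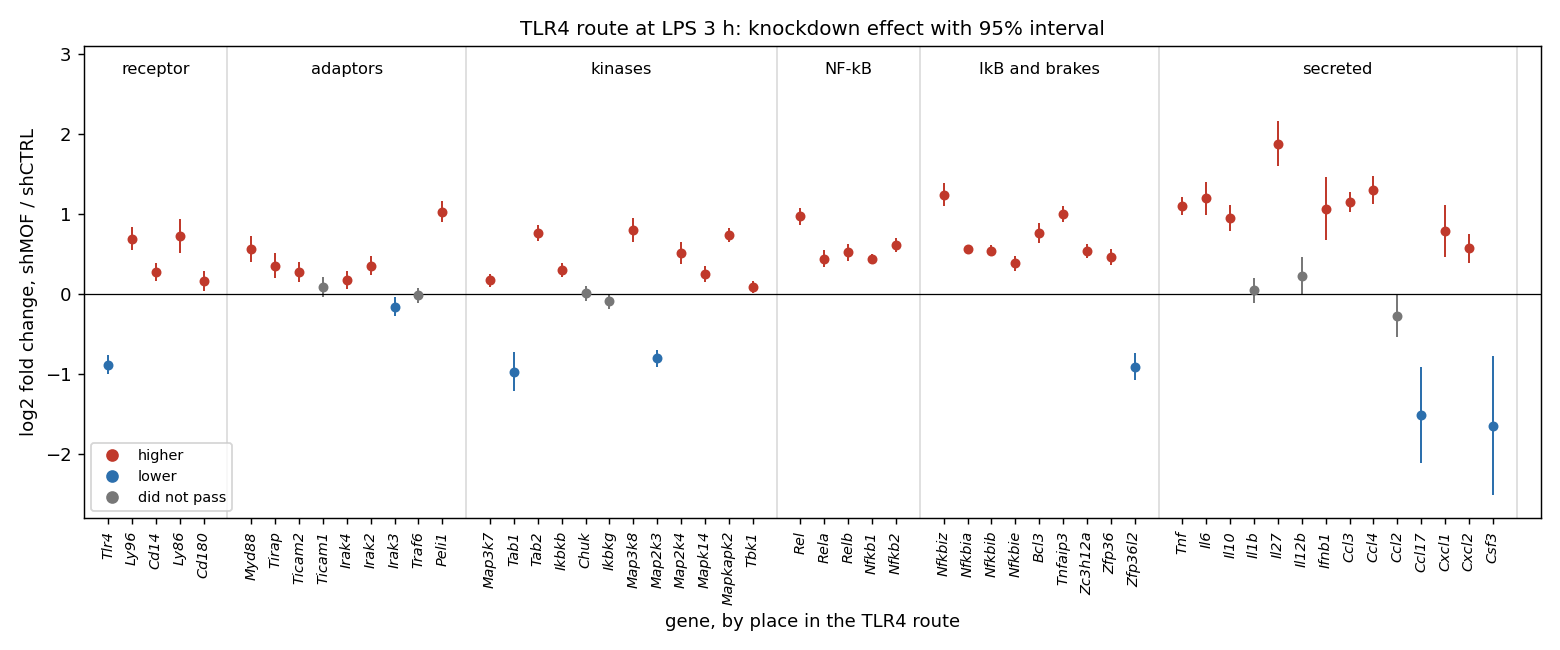
Log2 fold change with its 95% interval (vertical axis) at LPS 3 h for single genes along the TLR4 route (horizontal axis), ordered from receptor to secreted products, coloured by whether the gene rose, fell or did not pass the test. Tlr4, Tab1, Map2k3 and Zfp36l2 lie near -1, while all NF-kappaB and I-kappaB genes plotted lie above 0 and Il27, at a fold of 3.68, is the highest.

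Of 26 cytokine and growth factor genes 17 rose and 3 fell at LPS 3 h (median log2 0.60). In unstimulated cells 4 of them rose, 2 fell and the median was -0.01. Il27, the p28 chain of interleukin 27, rose 3.68-fold (3.03 to 4.46), and Ebi3, its partner chain, rose 1.17-fold (1.07 to 1.29). Il27 shares 103 bases with Apobr on the other strand. The acute inflammatory cytokines Tnf at 2.14 (1.98 to 2.32) and Il6 at 2.29 (1.99 to 2.65) rose. The anti-inflammatory cytokine Il10 rose too, 1.93-fold (1.72 to 2.16), and so did Ifnb1, interferon beta, at 2.10 (1.60 to 2.751). Il15, which supports NK and memory T cells, rose 2.11-fold (1.89 to 2.37) and Il18 rose 1.85-fold (1.64 to 2.08). Il1b at 1.03 (0.929 to 1.15) and Il12b at 1.17 (0.991 to 1.38) did not pass the test, nor did Il1rn, the receptor antagonist, at 1.04. Csf3, the granulocyte growth factor, fell to 0.321 (0.176 to 0.583), Inhba to 0.711 (0.575 to 0.879) and Vegfa to 0.727 (0.636 to 0.831). The rise of Il27, Tnf, Il15, Il10 and Il18 was larger after LPS than without it by the test of the difference, whereas for Il6 and Ifnb1 that test did not pass. For Tnf the fold without LPS was 1.04 (0.943 to 1.15) and for Il27 it was 1.31 (0.920 to 1.86), neither passing the test.

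In the TNF family of ligands and receptors 15 of 26 genes rose and 2 fell. Tnfsf9, which encodes the 4-1BB ligand, rose 3.68-fold (3.47 to 3.91) and stood at 1.43 (1.24 to 1.65) without LPS, and Cd40, the receptor for help from T cells, rose 2.11-fold (1.90 to 2.34). Tnfrsf1a, the main TNF receptor, rose 1.26-fold (1.12 to 1.41), while Tnfrsf1b at 0.922 did not pass. CC chemokines were mixed, with 3 of 13 up, 4 down and a median log2 of -0.02. The neighbouring chemokine genes Ccl3 and Ccl4 rose 2.22-fold (2.04 to 2.43) and 2.47-fold (2.18 to 2.79). Ccl17 and Ccl22, the ligands of CCR4, fell to 0.352 (0.232 to 0.533) and 0.657 (0.498 to 0.868). Ccl7 fell to 0.578 (0.477 to 0.701), and the monocyte chemokine Ccl2 at 0.826 (0.690 to 0.989) and Ccl5 at 1.06 (0.954 to 1.18) did not pass. Of these 13 genes 5 had a higher effect after LPS than without it. Among 12 CXC and CX3C chemokines 7 rose and 1, Ppbp, fell. The neutrophil attractants Cxcl1 and Cxcl2 rose 1.73-fold (1.38 to 2.17) and 1.49-fold (1.31 to 1.69), and the interferon-induced Cxcl10 and Cxcl11 rose 1.65-fold (1.25 to 2.19) and 1.69-fold (1.23 to 2.33). Cxcl3 stood at 0.880 (0.732 to 1.06) and Cxcl9 at 1.21 (0.782 to 1.86), and neither passed. Cxcl10 had been at 0.318 (0.228 to 0.444) without LPS, so its effect changed direction between the states, a difference of 2.38 in log2.

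Promoter sequence was read for these genes because NF-kappaB sites are a known feature of LPS-induced promoters. The 300 bases from 250 before to 50 after the start (RefSeq, GRCm38.p6) were searched on both strands for a form of the kappaB site that reads GGGA, any 2 bases and TTCC. Such a match was in 148 of 9620 promoters of genes tested (1.54%), in 4 of 10 CXC chemokine promoters, 3 of 18 cytokine promoters and 1 of 5 I-kappaB promoters. Genes with a match had a median log2 fold change of 0.00 against 0.03 without. The 100 bases before the start are printed 5' to 3' on the gene's strand for the 5 promoters with a match there, with the match in capitals.
Cxcl1 (chr5:90891145-90891244, plus strand): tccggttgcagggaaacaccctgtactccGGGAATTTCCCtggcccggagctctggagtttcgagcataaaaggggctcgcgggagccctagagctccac
Cxcl2 (chr5:90903799-90903898, plus strand): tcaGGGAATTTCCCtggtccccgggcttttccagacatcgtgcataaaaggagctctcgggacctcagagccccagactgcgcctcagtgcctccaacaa
Cxcl3 (chr5:90786001-90786100, plus strand): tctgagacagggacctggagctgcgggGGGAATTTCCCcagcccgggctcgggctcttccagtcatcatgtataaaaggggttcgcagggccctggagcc
Nfkbia (chr12:55492648-55492747, minus strand): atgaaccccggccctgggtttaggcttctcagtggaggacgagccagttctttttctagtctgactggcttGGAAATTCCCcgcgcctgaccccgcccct
Il6 (chr5:30013014-30013113, plus strand): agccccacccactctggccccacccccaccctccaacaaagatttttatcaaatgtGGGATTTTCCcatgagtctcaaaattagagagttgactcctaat
The capitals read the same in the 3 Cxcl genes, and of them Cxcl1 and Cxcl2 rose while Cxcl3 did not pass the test.

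Among 35 cytokine receptors 22 rose and 7 fell (median log2 0.39). Il1rl1, the receptor for interleukin 33, rose 2.91-fold (1.83 to 4.63), and Lifr, the receptor for LIF, rose 2.80-fold (2.35 to 3.33). Il15ra rose 2.12-fold (1.77 to 2.54) alongside its ligand gene Il15. Chains of the same receptor moved apart for interferon gamma and TGF-beta. Ifngr1 rose 1.37-fold (1.31 to 1.43) and Ifngr2 fell to 0.702 (0.665 to 0.741). Tgfbr2 rose 1.60-fold (1.45 to 1.76) and Tgfbr1 fell to 0.550 (0.510 to 0.594). Il21r fell most, to 0.318 (0.266 to 0.381), and the shared beta chain of the GM-CSF receptor, Csf2rb, fell to 0.777 (0.710 to 0.849). Csf2rb2 is a near copy of Csf2rb and reads may be shared between them. Among 9 chemokine receptors 6 rose and only Ccr1 fell, to 0.626 (0.571 to 0.686).

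Lipid mediator genes moved in both directions. Of 20 genes 12 rose and 2 fell. Ptgs2 (COX-2), the inducible prostaglandin synthase, rose 1.40-fold (1.25 to 1.58), while Ptges, which makes prostaglandin E2 from its product, fell to 0.518 (0.485 to 0.552). Hpgd, which inactivates prostaglandins, rose 5.61-fold (3.42 to 9.20), at a low mean normalized count of 31.6 in the authors' deposited table. Alox5 and its partner Alox5ap, which start leukotriene synthesis, rose 2.21-fold (1.39 to 3.53) and 1.51-fold (1.44 to 1.59). Of 33 further LPS-induced effectors 16 rose and 8 fell. Nos2, inducible nitric oxide synthase, rose 1.965-fold (1.70 to 2.27) but stood at 0.216 (0.0470 to 0.995) without LPS, where it did not pass the test. Ass1, which regenerates the arginine that NOS2 uses, fell to 0.538 (0.486 to 0.596). Irg1 (Acod1), which makes itaconate, rose 1.499-fold (1.38 to 1.63). The activation marker Cd69 rose 2.93-fold (2.404 to 3.57) and the vasoconstrictor Edn1 rose 2.77-fold (2.33 to 3.29). Acute phase and NAD-consuming genes were among those that fell: Lcn2 to 0.475 (0.414 to 0.545), Saa3 to 0.696 (0.631 to 0.767), Hp to 0.666 (0.523 to 0.849) and the NAD hydrolase Cd38 to 0.355 (0.264 to 0.476). Of 18 complement genes 10 rose, including the 3 C1q chains. The central component C3 fell to 0.659 (0.601 to 0.722) and Cfb to 0.630 (0.471 to 0.842).

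Interferon genes rose widely by small amounts. Of 21 signalling genes 16 rose and only Irf2bp2, a corepressor, fell, to 0.515 (0.445 to 0.596). Irf1, an early transcription factor of the response, rose 2.19-fold (1.998 to 2.399), though 907 of its bases overlap Gm17334 on the other strand. Irf9 rose 1.17-fold (1.09 to 1.26). Irf3, the factor below TRIF, at 0.994, Irf7 at 0.991 and Stat2 at 1.15 did not pass. Of 40 interferon-stimulated effector genes 27 rose and 13 did not pass, with a median log2 of 0.32 against 0.31 in unstimulated cells. The antiviral genes Rsad2 (viperin) and Mx1 rose 1.68-fold (1.34 to 2.09) and 1.66-fold (1.36 to 2.02), Ifit1 rose 1.53-fold (1.29 to 1.81) and Isg15 rose 1.25-fold (1.11 to 1.41). Oas2 at 1.04, Oas3 at 0.938 and Bst2 at 0.979 did not pass. These genes are abundant here, and 57.7% of all genes with means from 3000 to 10000 rose. Among 19 sensors of nucleic acid 12 rose and 2 fell. The sensors Ifih1 (MDA5) at 1.74 (1.57 to 1.93), Aim2 at 1.71 (1.56 to 1.87) and Mb21d1 (cGAS) at 1.36 (1.23 to 1.51) rose. Mavs, the adaptor of MDA5, fell to 0.816 (0.759 to 0.878) and Tmem173 (STING), which acts below cGAS, to 0.784 (0.710 to 0.867).

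The interferon-inducible GTPases, which act on vacuoles of pathogens, rose in 11 of 17 cases, and 6 did not pass. Iigp1 rose 1.98-fold (1.51 to 2.602) and Gbp5, which promotes inflammasome assembly, rose 1.86-fold (1.51 to 2.29). Gbp2 at 1.21 (1.02 to 1.44) and Gbp7 at 1.25 (1.02 to 1.55) did not pass. Members of this family share long stretches of sequence, as do Ifit3 with Ifit3b and Tgtp1 with Tgtp2, so the split of reads among them is uncertain. The promoters were searched for GAAA, any 2 bases and GAAA, the core of the interferon-stimulated response element. It was in 9 of 9 GTPase promoters and 15 of 32 promoters of the effector genes, against 320 of 9620 (3.33%) of all. Genes with a match had a median log2 fold change of 0.11 and 36.6% of them rose, against 0.03 and 31.1% without. The promoters of 3 GTPases that rose are shown as above, with matches, which overlap in Irgm1, in capitals.
Irgm1 (chr11:48871421-48871520, minus strand): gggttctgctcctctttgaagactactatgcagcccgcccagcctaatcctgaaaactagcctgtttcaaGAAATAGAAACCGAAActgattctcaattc
Irgm2 (chr11:58214877-58214976, plus strand): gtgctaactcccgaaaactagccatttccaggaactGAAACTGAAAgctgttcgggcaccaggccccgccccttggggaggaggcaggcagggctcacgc
Igtp (chr11:58199456-58199555, plus strand): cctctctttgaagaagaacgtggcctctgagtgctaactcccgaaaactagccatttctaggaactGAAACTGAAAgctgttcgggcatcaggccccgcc
Irgm1 rose 1.37-fold (1.21 to 1.55), Irgm2 rose 1.58-fold (1.38 to 1.80) and Igtp rose 1.496-fold (1.26 to 1.78). The capitals read the same in Irgm2 and Igtp and begin 64 and 34 bases before the start.

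For the inflammasome and NOD proteins 12 of 23 genes rose and 4 fell. Ripk2, the kinase below NOD1 and NOD2, rose 1.93-fold (1.80 to 2.07), Nlrp3 rose 1.41-fold (1.32 to 1.51) and Casp4 (caspase-11, the sensor of cytosolic LPS) rose 1.47-fold (1.36 to 1.59). Casp1 at 1.08 and the pore protein gene Gsdmd at 1.07 did not pass. Nlrx1, a mitochondrial NLR protein, fell to 0.614 (0.512 to 0.737). Antigen presentation moved little. Of 24 class I genes 8 rose and 2 fell, B2m being at 1.13 (1.06 to 1.20) and H2-K1 at 1.09 (0.989 to 1.20), which did not pass. Of 20 class II and costimulation genes 6 rose and 2 fell. Among them Cd83 rose 1.54-fold (1.41 to 1.68) and Icosl 1.52 (1.42 to 1.63), Ciita, the master regulator of class II genes, fell to 0.757 (0.606 to 0.946), and Cd80 (1.07), Cd86 (1.06) and H2-Ab1 (0.945) did not pass.

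Of 31 immediate-early transcription factors 18 rose and 4 fell. Members of AP-1 differed. Fosb rose 2.05-fold (1.64 to 2.57), Fosl1 1.74 (1.38 to 2.20), Jund 1.61 (1.48 to 1.74) and Junb 1.34 (1.25 to 1.43), while Fos fell to 0.652 (0.593 to 0.717) and Jun to 0.787 (0.704 to 0.880). Egr3 and Egr2 rose 2.18-fold (1.63 to 2.94) and 1.76-fold (1.44 to 2.15), and Myc at 1.08 did not pass. Of 14 KLF and SP genes 9 rose and Klf10 fell. Klf5 rose 3.42-fold (2.02 to 5.78) with a wide interval, and Klf4 and Klf2 did not pass. Of 36 lineage factors 17 rose and 9 fell. Spi1 (PU.1), the main factor of the macrophage lineage, rose 1.33-fold (1.24 to 1.42), Irf8 rose 1.29-fold (1.20 to 1.40), and Cebpa at 1.03 and Cebpb at 1.13 did not pass. The inhibitors of DNA binding Id1, Id2 and Id3 all fell, Id1 most, to 0.484 (0.359 to 0.654).

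Genes of macrophage identity rose in 23 of 26 cases. Mrc1, the mannose receptor, rose 1.97-fold (1.75 to 2.21) and Apoe rose 1.88-fold (1.59 to 2.22), while the F4/80 gene Adgre1 was at 0.999 (0.933 to 1.07) and did not pass. This list is highly expressed, and of the 500 genes at a mean above 10000, by the authors' deposited table, a share of 70.2% rose. Among 25 phagocytic receptors 15 rose and 4 fell. Stab2, a hyaluronan scavenger receptor, rose 2.64-fold (1.955 to 3.55), and Gas6, the bridging ligand for dying cells, rose 1.61-fold (1.47 to 1.76). Trem1, which amplifies inflammation, fell to 0.542 (0.396 to 0.742), and the scavenger receptor gene Marco to 0.681 (0.582 to 0.796). C-type lectins rose in 10 of 19 cases, with Clec10a at 2.70 (2.32 to 3.14) and Clec7a (Dectin-1) at 1.53 (1.33 to 1.76). The Clec4a copies share sequence and their counts are uncertain. Receptors of the Fc, CD300, Siglec and SLAM families divided, 12 of 34 up and 6 down. Here 10 had a lower effect after LPS than without it. The inhibitory receptor gene Cd300a fell to 0.412 (0.381 to 0.445), and Cd300lb and Cd300lf fell to 0.521 (0.465 to 0.584) and 0.664 (0.571 to 0.773). Integrins and adhesion molecules rose in 17 of 26 cases, with Vcam1 at 1.91 (1.78 to 2.05), and only Itgb7 fell, to 0.804 (0.736 to 0.878).

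G protein-coupled receptors gave both very large rises and falls, 21 of 43 up and 10 down. Gprc5c, an orphan receptor, rose 4.12-fold (2.93 to 5.77), and Gpr34, a lysophosphatidylserine receptor, rose 2.63-fold (2.04 to 3.39). Cnr2, the cannabinoid receptor of immune cells, fell to 0.176 (0.0956 to 0.325), although without LPS it stood at 1.02 (0.909 to 1.14). Receptors for lysophosphatidic acid moved apart, Lpar1 rising 1.52-fold (1.35 to 1.71), Lpar5 falling to 0.427 (0.291 to 0.626) and Lpar6 to 0.447 (0.371 to 0.540). Ion channel genes rose in 17 of 41 and fell in 8. The potassium channel gene Kcna3 rose 3.05-fold (2.72 to 3.41), and Kcnab2, a subunit of such channels, fell to 0.763 (0.716 to 0.813). Proteases, inhibitors and matrix genes rose in 18 of 43 and fell in 7. Plat, tissue plasminogen activator, rose 3.34-fold (2.89 to 3.86). Serpinb9, the inhibitor of granzyme B, fell to 0.324 (0.286 to 0.366), and Thbs1, thrombospondin 1, to 0.407 (0.343 to 0.482). Regulators of RAS, RAP and G proteins rose in 27 of 48 and fell in 6. Rasgrp3, which loads RAS and RAP with GTP, rose 3.46-fold (2.98 to 4.01), and Rgs16, which shortens G protein signals, rose 2.54-fold (2.21 to 2.94). Of 70 cytoskeleton genes 47 rose and 12 fell. The GTPase gene Rhou rose 2.45-fold (2.18 to 2.76) and Lmnb1, lamin B1, fell to 0.359 (0.299 to 0.432).

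**Figure D3:**
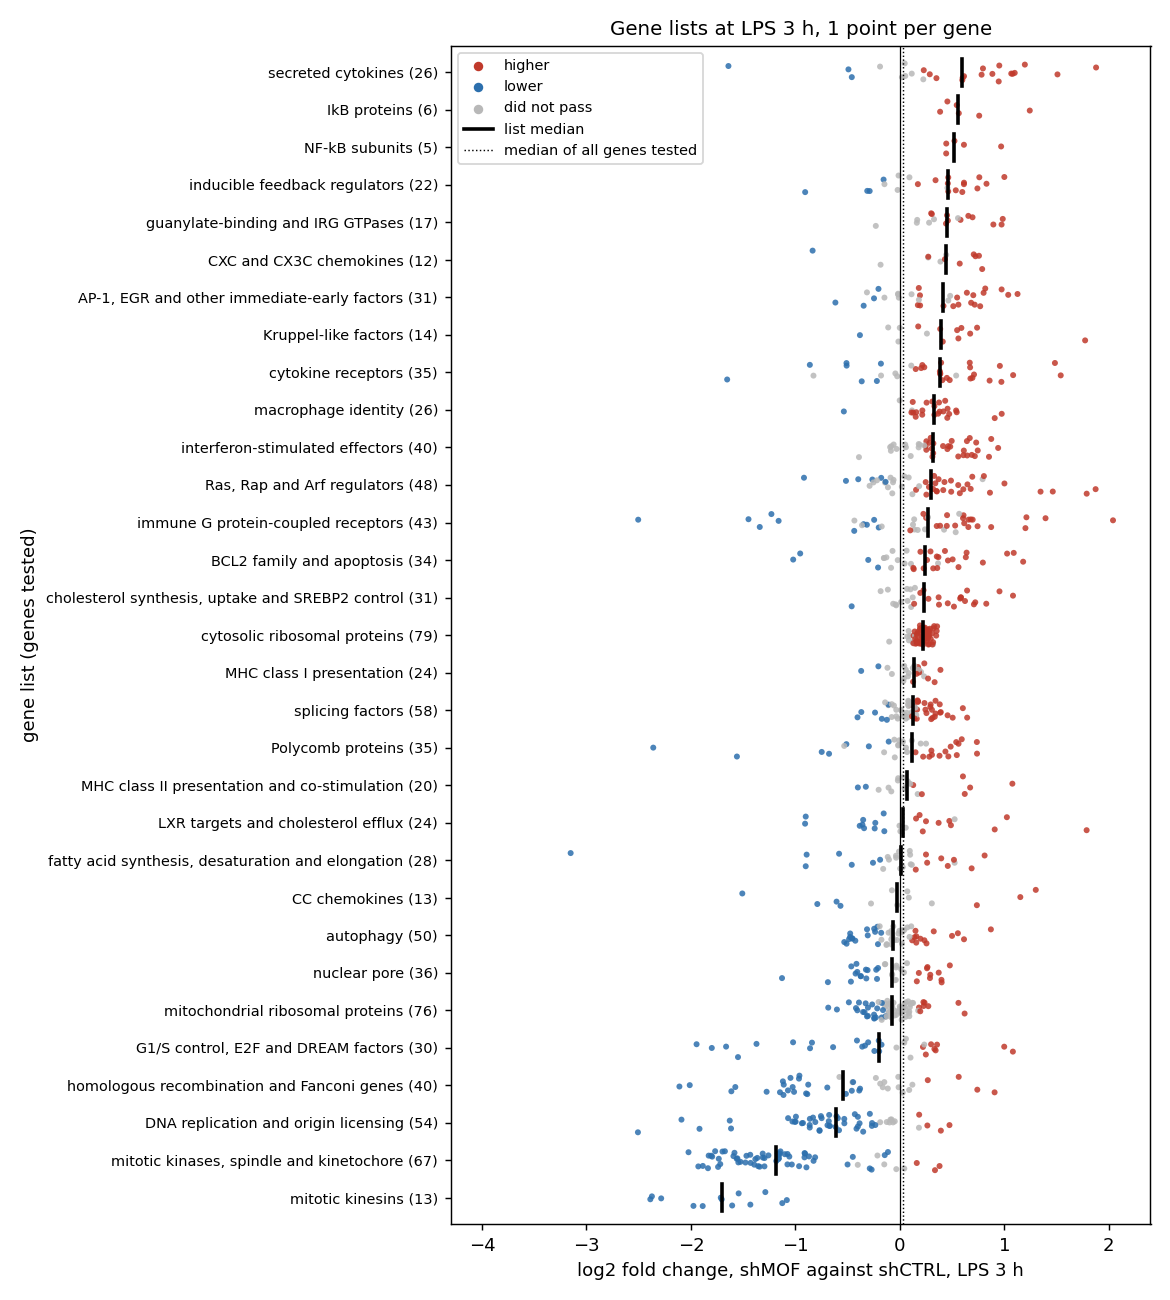
Log2 fold change at LPS 3 h (horizontal axis) of single genes (points) in named lists (1 line each, genes tested in parentheses), coloured by whether the gene rose, fell or did not pass, with a bar at each list median and a dotted line at the median of all genes. The cytokine list has a median of 0.60, while the mitotic and kinesin lists have medians of -1.18 and -1.70.

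The lists with the lowest medians were those of cell division. Of 54 DNA replication genes 42 fell and 4 rose, with a median log2 of -0.61. Ticrr (Treslin) and Cdc6, which act in origin firing and licensing, fell to 0.176 (0.118 to 0.262) and 0.235 (0.155 to 0.356), and Cdc45, part of the replicative helicase, to 0.265 (0.203 to 0.345). The helicase subunits Mcm2 at 0.587 (0.502 to 0.687) and Mcm7 at 0.551 (0.483 to 0.627) fell by less. Pcna, the sliding clamp, at 0.956 (0.876 to 1.04) and Cdt1 at 0.934 (0.843 to 1.04) did not pass, and Rfc3, a subunit of the clamp loader, rose 1.39-fold (1.25 to 1.54). In unstimulated cells 50 of these genes fell (median -0.82), and the effect after LPS was higher, that is less negative or positive, for 23 and lower for 4. Nucleotide synthesis genes fell in 15 of 32 and rose in 3, with Rrm2 of ribonucleotide reductase at 0.380 (0.304 to 0.476). Regulators of entry into S phase were divided, 17 of 30 falling and 8 rising. The D-type cyclins moved apart: Ccnd1 fell to 0.386 (0.342 to 0.437) and Ccnd2 rose 2.12-fold (1.75 to 2.56). The atypical E2F repressors moved apart too, E2f7 falling to 0.260 (0.166 to 0.406) and E2f8 rising 2.0-fold (1.76 to 2.27), although E2f8 overlaps Gm2788 on the other strand by 3639 bases. E2f8 had stood at 0.287 (0.251 to 0.329) without LPS. Of 30 CDK inhibitor and p53 target genes 13 rose and 10 fell, with Cdkn1a (p21) at 1.40 (1.29 to 1.52) and Zmat3 at 0.453 (0.412 to 0.498).

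Genes of mitosis had a lower median still, of -1.18. Of 67 genes for mitotic entry, centromere and spindle 59 fell, and the 3 that rose were Pttg1 (securin, 1.30), Pkmyt1 (1.26) and Cdc27 (1.12). Cdk1, the mitotic kinase, fell to 0.301 (0.266 to 0.340), its cyclin Ccnb1 to 0.308 (0.261 to 0.365), and Plk1 to 0.294 (0.234 to 0.368). Ska1, of the kinetochore, fell most in this list, to 0.246 (0.152 to 0.399). All 13 mitotic kinesins fell, from 0.473 for Kif23 to 0.191 for Kif18a, the kinesin that limits the movement of chromosomes at the spindle equator. Without LPS the list of 67 had fallen in 65 genes with a median log2 of -1.96. The effect after LPS was less negative, or positive, for 50 of them and more negative for 2. The proliferation marker Mki67, which is not in the list, stood at 0.216 (0.195 to 0.239) without LPS and 1.78 (1.63 to 1.94) after it. The progenitor markers Cd34 and Ly6a fell as well, to 0.511 (0.315 to 0.829) and 0.431 (0.347 to 0.536), and their part in this result was not tested. Cohesin and condensin genes fell in 15 of 26, with Esco2, which acetylates cohesin in S phase, at 0.199 (0.114 to 0.348) and the topoisomerase Top2a at 0.381 (0.335 to 0.433). Homologous recombination and Fanconi genes fell in 24 of 40 and rose in 4. Brca1 fell to 0.232 (0.188 to 0.286), Fancc rose 1.88-fold (1.66 to 2.12), and the checkpoint kinases Atm (0.990) and Atr (1.02) did not pass. End joining and excision repair genes fell in 15 of 41 and rose in 4.

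Promoter features of cell cycle genes were counted in the same windows. The CHR, TTTGAA, which recruits MuvB complexes at late cell cycle genes, was in 1155 of 9620 promoters (12%), in 15.9% of genes that fell, in 30.5% of those that fell by 2-fold or more, in 30 of 55 promoters of the mitotic list and in 10 of 12 kinesin promoters. The E2F letters TTTCGCGC, TTTGGCGC or TTTCCCGC were in 3.72% of all and in 17 of 44 replication promoters. These counts move with the window. In the 250 bases before the start alone the CHR was in 10.7% of all promoters, in 19.5% of genes that fell by 2-fold or more, in 14 of 55 promoters of the mitotic list and in 5 of 12 kinesin promoters. The E2F letters were there in 3.18% of all and in 10 of 44 replication promoters. The CHR letters were also common in some lists where more genes rose than fell. In both windows they were in 8 of 16 C-type lectin, 4 of 9 GTPase and 11 of 32 interferon effector promoters. CXC chemokine promoters, another such list, had them in 0 of 10. CCAAT, which binds NF-Y, was in 38.9% of all promoters and in 55.5% of genes that fell by 2-fold or more. Genes with a CHR match had a median log2 of -0.05, against 0.04 without. CHR and interferon element matches overlap in 7 promoters. Printed are the 3 kinesin promoters with a CHR within 100 bases of the start, and 2 replication promoters with an E2F match, from 1 gene that rose and 1 that fell. TTCAAA is the CHR on the other strand.
Kif11 (chr19:37376282-37376381, plus strand): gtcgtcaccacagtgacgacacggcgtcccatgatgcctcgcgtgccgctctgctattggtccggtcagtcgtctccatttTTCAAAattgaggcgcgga
Kif15 (chr9:122950981-122951080, plus strand): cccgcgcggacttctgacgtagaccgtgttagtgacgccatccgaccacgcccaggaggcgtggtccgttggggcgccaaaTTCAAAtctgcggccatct
Kif22 (chr7:127042421-127042520, minus strand): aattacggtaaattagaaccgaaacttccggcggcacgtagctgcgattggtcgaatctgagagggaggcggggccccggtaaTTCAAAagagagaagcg
Rfc3 (chr5:151651209-151651308, minus strand): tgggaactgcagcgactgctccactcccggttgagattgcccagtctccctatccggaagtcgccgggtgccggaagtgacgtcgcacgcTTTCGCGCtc
Mcm6 (chr1:128359706-128359805, minus strand): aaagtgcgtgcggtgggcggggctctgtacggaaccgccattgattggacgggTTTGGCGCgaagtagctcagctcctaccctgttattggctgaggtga
In the 3 kinesin promoters the CHR starts 19, 19 and 17 bases before the start. Kif11 fell to 0.410 (0.355 to 0.472), Kif15 to 0.254 (0.201 to 0.321) and Kif22 to 0.329 (0.266 to 0.407). With an E2F match each, Rfc3 rose 1.39-fold (1.25 to 1.54) and Mcm6 fell to 0.820 (0.743 to 0.904).

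**Figure D4:**
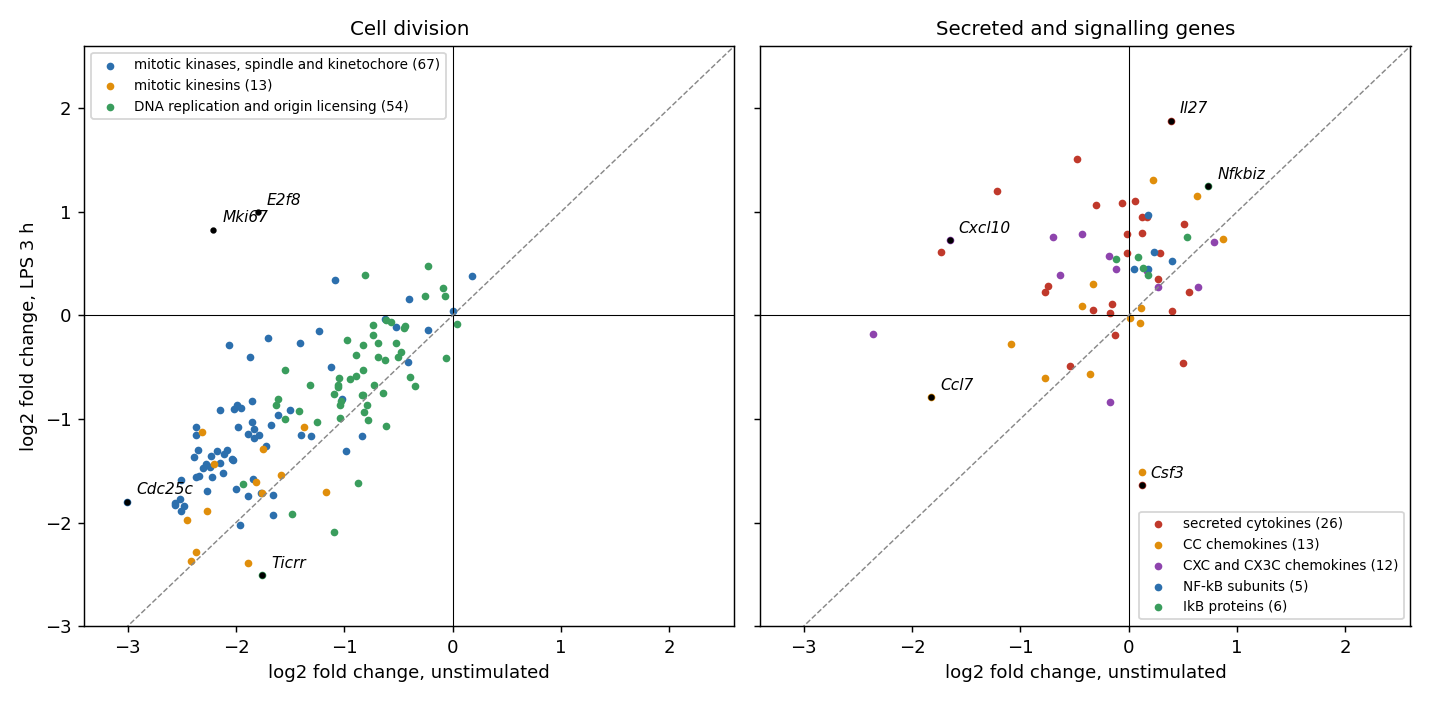
Log2 fold change of shMOF against shCTRL at LPS 3 h (vertical axis) against that in unstimulated cells (horizontal axis), 1 point per gene, for 3 cell division lists (left panel) and 5 lists of secreted and NF-kappaB genes (right panel), with the dashed line marking equal effects; the labelled Mki67 and E2f8 belong to none of the lists plotted. Most cell division genes lie below 0 on both axes and above the dashed line, with mitotic medians of -1.18 after LPS and -1.96 without, while most secreted and NF-kappaB genes lie above 0 on the vertical axis.

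Among the partners of MOF changes were small. Of 15 genes of the MSL and NSL complexes 5 rose and 3 fell, Kat8 included. Msl2, the ubiquitin ligase subunit of MSL, rose 1.23-fold (1.14 to 1.32) and Msl3 rose 1.18-fold (1.11 to 1.27), while Kansl3 of NSL fell to 0.849 (0.788 to 0.915) and Msl1 at 0.977 did not pass. Among 36 acetyltransferase genes 12 rose and 8 fell, with Ep300 (1.03) and Crebbp (1.12) not passing. Polycomb genes rose in 15 of 35 and fell in 7. The chromobox subunits Cbx6 and Cbx2 fell to 0.195 (0.151 to 0.251) and 0.339 (0.222 to 0.519), and the methyltransferase gene Ezh2 to 0.702 (0.602 to 0.817). The PRC1 ligase gene Rnf2 rose 1.51-fold (1.41 to 1.62). For histone and DNA methylation Uhrf1, which brings DNMT1 to replicated DNA, fell to 0.373 (0.310 to 0.449) and Dnmt1 to 0.674 (0.612 to 0.743), and the demethylase gene Kdm4a rose 1.57-fold (1.48 to 1.67). Splicing factors rose in 28 of 58 and fell in 6. For 31 of them the effect was higher after LPS than without, with Hnrnpf at 1.56 (1.49 to 1.64) and the core spliceosome gene Prpf8 at 0.755 (0.707 to 0.807).

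Among 34 cell survival and death genes 20 rose and 4 fell. The NF-kappaB-induced survival genes Bcl2a1a, Bcl2a1b and Bcl2a1d rose to 2.04, 2.13 and 2.27 of control. These 3 are near-identical copies and their counts may be split or shared. Cflar, which blocks caspase-8, rose 1.48-fold (1.36 to 1.60) and Mcl1 rose 1.20-fold (1.15 to 1.25). Bmf, a BH3-only death gene, fell to 0.516 (0.425 to 0.628), and Bax (1.05) and Bak1 (0.953) did not pass.

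Cholesterol synthesis and uptake genes rose in 18 of 31 cases, and 1, Lss (lanosterol synthase), fell, to 0.727 (0.627 to 0.842). Hmgcs1, an early enzyme of the route, rose 1.94-fold (1.80 to 2.08), and Insig1, which restrains the SREBP factors, rose 2.12-fold (1.958 to 2.29). Sqle at 1.05 did not pass. Ch25h, which makes 25-hydroxycholesterol, a repressor of that route, rose 3.45-fold (2.92 to 4.08). Of 24 LXR and efflux genes 10 rose and 10 fell. Abca1 rose 1.14-fold (1.02 to 1.27) and its companion transporter Abcg1 fell to 0.789 (0.717 to 0.868), as did Nr1h3 (LXR alpha) to 0.780 (0.729 to 0.835). Fads1, the delta-5 desaturase that makes arachidonic acid, fell to 0.113 (0.0972 to 0.130), beside 0.455 (0.414 to 0.5002) without LPS. This was the largest fall among genes at a mean of 50 or more, with clone, Rik and predicted-gene names left out. The neighbouring desaturase gene Fads2 fell to 0.539 (0.412 to 0.705) and Scd2 to 0.536 (0.453 to 0.633), whereas Fasn, which builds the chain, at 0.995 did not pass. Sphk1, which makes sphingosine 1-phosphate, rose 2.73-fold (2.30 to 3.24), and the fatty acid carrier gene Fabp4 rose 2.50-fold (2.22 to 2.81). Abcd2, a peroxisomal transporter of very long chains, rose 3.23-fold (2.402 to 4.35). In one-carbon metabolism 7 of 33 genes rose and 7 fell. Gcsh, the lipoyl carrier of the glycine cleavage system, fell to 0.167 (0.143 to 0.195), and Lias, which makes lipoyl groups, fell to 0.774 (0.696 to 0.860).

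Amino acid genes rose in 20 of 42 and fell in 7. Kmo of the kynurenine route rose 2.45-fold (1.69 to 3.56), and Arg1, arginase of alternatively activated macrophages, fell to 0.320 (0.146 to 0.702). In the list of alternative activation markers, 10 of 19 genes rose and 4 fell, with a median log2 of 0.27. The cystine antiporter genes parted, Slc7a11 rising 1.51-fold (1.31 to 1.75) and its heavy chain Slc3a2 falling to 0.609 (0.574 to 0.646). Genes of the unfolded protein response were even, 13 up and 13 down of 42. Herpud1 rose 2.49-fold (2.18 to 2.84), the disulfide isomerase gene Pdia6 fell to 0.449 (0.417 to 0.484), and Xbp1 at 1.07 did not pass. Peroxiredoxins and thioredoxins rose in 5 of 20 and fell in 8, Prdx6 falling most, to 0.514 (0.481 to 0.550). Hmox1, heme oxygenase, fell to 0.633 (0.554 to 0.723) and the metallothionein gene Mt2 rose 2.43-fold (2.17 to 2.72). Autophagy genes fell in 15 of 50 and rose in 13, with Atg5 at 0.714 (0.664 to 0.768) and the receptor genes Sqstm1 and Optn at 1.53 (1.41 to 1.66) and 1.83 (1.66 to 2.01). For 16 of these genes the effect was lower after LPS than without. Lysosomal genes rose in 43 of 70 and fell in 14, Manba (beta-mannosidase) falling most, to 0.460 (0.426 to 0.497). Genes of mitochondrial ribosomes fell in 22 of 76 and rose in 8, with Mrpl51 at 0.622 (0.561 to 0.690). Cytosolic ribosomal protein genes rose in 71 of 79, but by little, with a median log2 of 0.23 beside 0.22 for all genes with a mean above 10000. Their many processed copies in the genome leave single values uncertain.

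Among the 24 largest rises with a mean of at least 50 and no clone, Rik or predicted-gene name, several belong to none of the groups above. Tmem200b rose 5.66-fold (4.42 to 7.25), the most under those limits. It stood at 0.391 (0.0549 to 2.78) without LPS, a wide interval that did not pass the test. The organic anion carrier gene Slco2b1 rose 4.32-fold (3.28 to 5.70), Dll1, a Notch ligand, rose 3.03-fold (2.39 to 3.84), and Tox2, a transcription factor, rose 3.22-fold (2.73 to 3.81). Nrcam, an adhesion protein of neurons, rose 3.11-fold (2.70 to 3.58) and Lama5, a laminin chain, rose 2.94-fold (2.30 to 3.76). Among the 24 largest falls outside those groups were Clic5, a chloride channel family gene, at 0.216 (0.143 to 0.325), Fam57a at 0.219 (0.164 to 0.293) and Aldh6a1, which acts in valine breakdown, at 0.229 (0.197 to 0.267). Slco2b1, Fam57a and Aldh6a1 each overlap other genes on the opposite strand, Fam57a by 35157 bases with Glod4, and whether counting used strand is not given in the sources used here. Tnfsf9 (618 bases), Ch25h (357 bases) and Ticrr (51 bases) overlap genes on the other strand as well. Cell cycle genes made up most of the other falls, Dtl at 0.236 and the kinetochore gene Nsl1 at 0.259 among them.

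Across all 12994 genes the direction of change went with expression level from a mean of 50 upward. The share that rose was 15.9% for mean normalized counts of 50 to 100 and 70.2% above 10000, and the share that fell was 22.9% for 50 to 100, highest at 30.5% for 300 to 1000 and 8.40% above 10000, the bins being of the mean in the authors' deposited table. For means of 10 to 50 few genes were called, with 10.2% rising and 7.55% falling. The median log2 fold change was -0.02 for means of 10 to 50, -0.10 for 100 to 300 and 0.22 above 10000. Over genes, log2 fold change and log2 mean had a Pearson r of 0.166 and a rank correlation (Spearman) of 0.205, where genes are not independent and share the libraries. The length of the gene went with it as well among genes of 5000 bases or more. Of protein-coding genes spanning 5000 to 20000 bases 26.1% rose and 25.9% fell, while of those over 200000 bases 41.6% rose and 13% fell. The median log2 was -0.01 for the first and 0.15 for the second, beside 0.02 and 0.04 in unstimulated cells. The shortest genes, under 5000 bases, did not follow this order, with 29.8% rising, 19.3% falling and a median of 0.03. Within genes of mean 300 to 3000 the share that rose was 25.6% for spans to 20000 bases and 44.6% over 100000 bases. Over the autosomes the medians ran from -0.02 on chromosome 17 to 0.09 on chromosome 1. They were 0.21 for the 19 mitochondrial genes tested and 0.24 for the 7 on Y, and on X 30.8% rose and 15.0% fell.

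**Figure D5:**
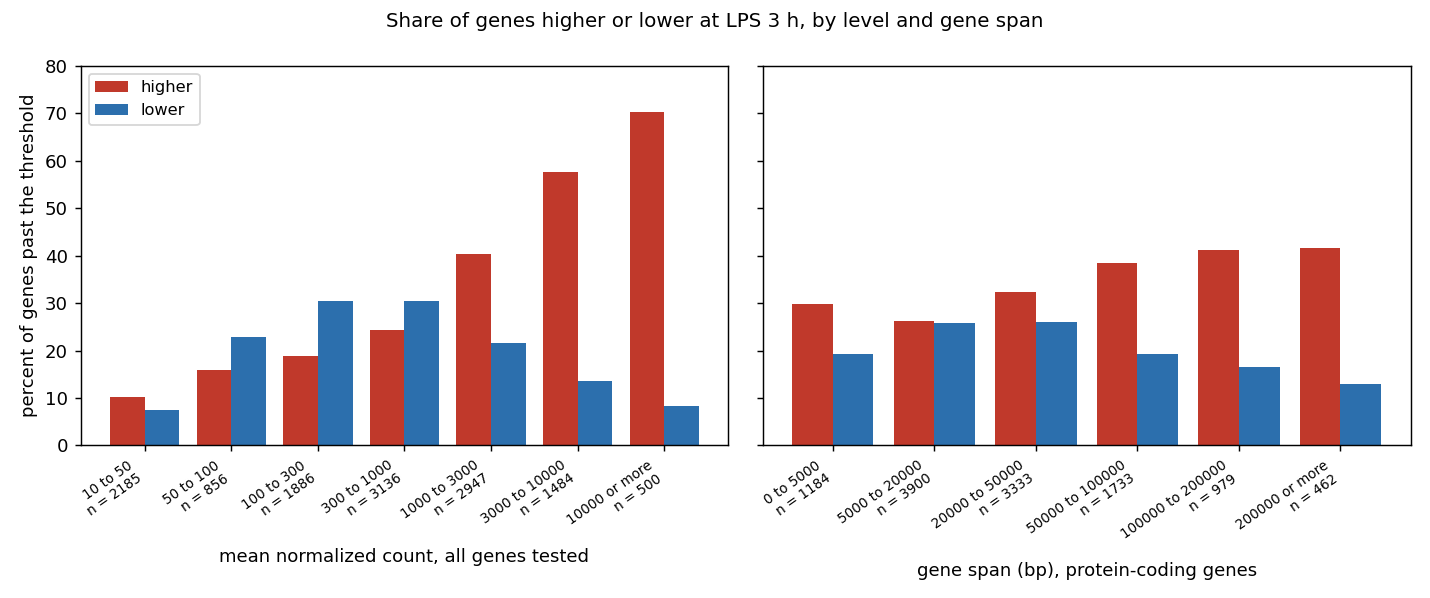
Share of genes that rose and that fell at LPS 3 h in bins of mean normalized count (left) and of gene span in bases for protein-coding genes (right). The share that rose climbs from 10.2% to 70.2% with level, while in the lowest bin the share that fell is also low, at 7.55%. By span the share that rose is 29.8% in the shortest genes, lowest at 26.1% for 5000 to 20000 bases and 41.6% in the longest.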

How the data were processed

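RNA was sequenced from 12 libraries in 4 groups of 3. Per the labels' protocols, RNA of all samples was extracted at the same time and read as stranded mRNA libraries with paired-end reads of 100 bases. The submitters' processing notes name DESeq2 and mm10. For the aligner, the counter, the annotation release and the use of strand, nothing was stated in the sources used here. The authors deposited 2 result tables, each with a mean normalized count (a signal over libraries, with no depth per library), a log2 fold change and its standard error, a Wald score, and a p-value with its adjusted p-value. Depth per library is therefore unknown, and precision is carried by the standard errors. No column of unmapped samples was present.

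Folds and 95% intervals were computed as powers of 2 of the deposited log2 values and their standard errors. Calls used the deposited adjusted p under 0.05 for genes with a mean of at least 10. The difference between LPS 3 h and unstimulated effects was divided by the root of the summed squared standard errors, tested two-sided against the normal distribution and adjusted by Benjamini-Hochberg over 12994 genes, which takes the errors as uncorrelated, although both tables may share dispersion estimates. On simulated data of 12994 genes this test called 50 of 100 genes with a true log2 difference of 0.5, 85 of 100 with 1 and 6 of 12794 with none. The simulated errors were independent and normal, with the same deposited standard errors that the test uses. The simulation therefore cannot show how the test behaves where those standard errors are wrong or the errors are shared. It also held far fewer genes with a difference than the 2363 and 1614 called in the data. The cut-off after adjustment depends on that share, so the simulated rates do not carry over to the data.

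The members and the 93 gene lists were chosen with earlier results of these data known. Of 3122 list entries 2989 were in the table, 16 under another name. Lists were described by counts and medians beside all genes, with no test. Named genes were Kat8 and its neighbours within 50 kb, Prdx1, the 24 largest rises and falls and the 10 largest differences each way with a mean of at least 50, up to 8 list members each way, members needed by a textbook scheme of a pathway, and any member of a list of at most 20. The rankings of rises, falls and differences left out genes with clone, Rik or predicted-gene names. Promoter sequences were RefSeq's, build GRCm38.p6. Alternatives were a mean of at least 50 or no minimum, adjustment over the genes tested only, thresholds of 0.01, a log2 change of at least 1, a null of 0.25, centring on the median, and leaving out Kat8. Python 3.11.15, numpy 2.4.6, pandas 2.3.3, scipy 1.17.1 and matplotlib 3.10.9 were used. Some results on named genes are not reported here.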

Additional observations from a re-analysis of the deposited data

Results flagged for a closer look

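The effect of MOF depletion differed between LPS 3 h and unstimulated cells by the test of the difference for 2363 genes with a higher effect after LPS and 1614 with a lower one. The 10 largest differences upward among genes with a mean of at least 50, in log2 units, were those of Tmem200b (3.86), Nos2 (3.18), Adamts4 (3.09), Mki67 (3.04), Gem (2.89), E2f8 (2.80), Lhx2 (2.62), Bcl2a1a (2.50), Cxcl10 (2.38) and Adm (2.11). That mean is 1 value for both states, so it does not show the level without LPS. Of these genes, Tmem200b, Nos2, Gem, Bcl2a1a and Adm did not pass the test without LPS. Their standard errors there ran from 0.65 to 1.44 in log2, so their rank is uncertain. Nos2 makes nitric oxide, Adamts4 cleaves aggrecan and Adm encodes adrenomedullin, a vasodilating peptide. Mki67 was at 0.216 (0.195 to 0.239) without LPS and 1.78 (1.63 to 1.94) after it, so its effect turned from a fall to a rise. Adm was at 0.617 (0.255 to 1.49) and 2.67 (2.12 to 3.35), and Gem, a GTPase of the RAD family, at 0.337 (0.123 to 0.924) and 2.50 (2.26 to 2.76), and neither passed the test without LPS. Mki67 shares 674 bases with Gm45240 on the other strand.

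The 10 largest differences downward were those of Cnr2 (-2.53), Gdpd2 (-2.46), Cd38 (-2.46), Hp (-2.42), Fads1 (-2.02), Trem3 (-1.78), Fpr1 (-1.73), Ifitm1 (-1.67), Gpr31b (-1.58) and Oxld1 (-1.53). Both rankings of differences left out clone, Rik and predicted-gene names. Cnr2, Cd38 and Trem3 did not pass the test without LPS, and Gdpd2 and Gpr31b did not pass after it. The difference had a standard error of 0.84 for Cd38 and 0.61 for Gdpd2 and Trem3, so their rank is uncertain. Hp, the haptoglobin gene, was at 3.57 (1.91 to 6.70) without LPS and 0.666 (0.523 to 0.849) after it. Fpr1, the receptor for formylated peptides, was at 3.62 (2.53 to 5.17) without LPS and 1.09 (0.950 to 1.25) after it, where it did not pass the test. Fads1 was lower in both states.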

How the results depend on the processing

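Counts of called genes kept within 1.5 times of their value under a mean of at least 50, no minimum mean, adjustment over the genes tested only, centring on the median and leaving out Kat8. Centring, which shifts all log2 values by 0.03, moved the share of calls that were rises from 58.3% to 53.1%. With a log2 change of at least 1 required, 256 genes rose and 361 fell, so that falls then outnumbered rises, and with a null of at most 0.25, 1290 and 895. For the difference between states, a minimum of 1 left 246 higher and 145 lower, and a threshold of 0.01 left 1023 lower. Of 186 list counts, 181 stayed within 1.5 times under centring, 184 with a mean of at least 50, 170 at a threshold of 0.01 and 34 with the null of 0.25, so most list counts rest on changes that are small. Motif shares from the 250 bases before the start only were judged by another limit, the sampling error of each share. By it 924 of 940 counted as unchanged. That limit is wide for short lists, so some of the 924 changed by more than 1.5 times. The kappaB count in GTPase promoters, for example, went from 2 of 9 to 1 of 9. The 16 beyond the limit include the CHR in 2-fold falls (19.5%), mitotic (14 of 55) and kinesin promoters (5 of 12). They also include the E2F letters in replication promoters (10 of 44). Of 349 genes named, 343 kept their call under centring, Abca1, Cd180 and Vkorc1 lost it, and Ccl2, Ikbkg and Tnfrsf1b gained one. No paired analysis was possible because the deposited tables hold no values per library, and for the same reason no replicate could be left out in turn. Genes of low mean are limited by wide intervals. Some genes of higher mean are too in unstimulated cells, such as Nos2 (mean 3118, interval there 0.0470 to 0.995).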

Other observations

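Energy metabolism was not described above. Of 37 glycolysis genes 7 rose and 12 fell at LPS 3 h. Pfkp, a phosphofructokinase, rose 1.76-fold (1.65 to 1.88) and Pfkfb3, which makes its activator, rose 1.35-fold (1.25 to 1.47), while Pgk1 fell to 0.793 (0.731 to 0.860) and Ldha, lactate dehydrogenase A, to 0.822 (0.760 to 0.889). In the citric acid cycle 15 of 32 genes rose and 4 fell, with the NADP-linked isocitrate dehydrogenases Idh1 and Idh2 at 1.60 (1.49 to 1.73) and 1.49 (1.37 to 1.62) and Ogdh at 0.756 (0.707 to 0.808). Fatty acid oxidation genes fell in 11 of 40 and rose in 13, Hadh falling to 0.597 (0.532 to 0.670). Complex I genes fell in 8 of 41 and rose in 2, Ndufa3 falling to 0.611 (0.557 to 0.671). The mitophagy genes Park2 (parkin) and Pink1 rose 1.88-fold (1.46 to 2.42) and 1.495-fold (1.32 to 1.69). Peo1, the mitochondrial DNA helicase Twinkle, fell to 0.456 (0.359 to 0.578), and Phb2, prohibitin 2, to 0.582 (0.545 to 0.621).

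Translation, signalling and circadian genes were divided. Among 49 translation factors 24 rose and 8 fell. Of the subunits of eIF2B, which recharges the initiation factor eIF2, Eif2b4 fell to 0.656 (0.583 to 0.739), Eif2b1 to 0.723 (0.646 to 0.810), Eif2b5 to 0.799 (0.730 to 0.874) and Eif2b2 to 0.893 (0.834 to 0.957), and Eif2b3 at 0.882 did not pass. Start-codon factors Eif1a and Eif1 rose 1.45-fold (1.37 to 1.54) and 1.39-fold (1.31 to 1.46). Of 50 ribosome assembly genes 13 fell and 5 rose, with Polr1a of RNA polymerase I at 0.732 (0.649 to 0.825). In PI3K and mTOR signalling 22 of 50 rose and 9 fell. Pik3ca, a catalytic subunit, rose 1.56-fold (1.47 to 1.66) and Irs2 rose 1.82-fold (1.60 to 2.08), whereas the restraining genes Tsc1, Deptor and Foxo3 fell to 0.692 (0.619 to 0.773), 0.561 (0.455 to 0.692) and 0.627 (0.548 to 0.719). Of 17 circadian genes 2 rose and 5 fell, among the latter Tef to 0.481 (0.432 to 0.536), Dbp to 0.766 (0.622 to 0.942) and the repressor Nr1d1 to 0.533 (0.414 to 0.686). Their activator Clock rose 1.19-fold (1.08 to 1.30) and Arntl at 1.18 did not pass. All named values here are folds of shMOF over shCTRL at LPS 3 h.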
